A study of Homo sapiens with 10 samples.

Results

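The SR and hnRNP splicing factors were followed through the 4 PC3 lines of this RNA-seq series. Members were the gene and isoform entries carrying a symbol of the form SRSF plus a number, or HNRNP plus a family letter. There were 34 such gene entries of 23170 (13 SRSF and 21 hnRNP entries, with 33 different symbols because SRSF10 is listed at a pair of loci) and 82 such isoform entries of 37557. PC3 is a human prostate cancer cell line, and all groups derive from it. PC3-Epi (2 samples) is a luciferase-positive epithelial subpopulation that was selected for its morphology. PC3-EMT14 (3 samples) is 1 mesenchymal population isolated after PC3-Epi cells had been grown together with human macrophages treated with IL-4. The zinc finger transcription factors OVOL1 and OVOL2 were brought into PC3-EMT14 by lentivirus, which gave PC3-EMT14-OVOL1, sequenced in 3 samples, and PC3-EMT14-OVOL2, sequenced in 2. The study's text calls the PC3-EMT14 cells of this comparison parental, and names an empty-vector derivative only for other assays.

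Human SR proteins bind exonic enhancer sequences through RNA recognition motifs and recruit the splicing machinery through domains rich in arginine and serine. The hnRNP proteins coat nascent pre-mRNA, and several of them, hnRNP A1 and hnRNP L among them, silence exons or steer the choice of splice site. Both families are expressed in nearly every cell type. Their balance is known to shape alternative splicing in tumour cells, next to tissue-restricted regulators such as the epithelial proteins ESRP1 and ESRP2. Several SR and hnRNP genes also regulate their own transcripts by splicing in exons that lead to decay, so the mix of isoforms of these genes is itself a readout of splicing.

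The deposited measurement is 1 pooled FPKM value (fragments per kilobase of transcript, scaled by the authors to the upper quartile of a library's gene counts rather than to all mapped fragments) for each line in each of 4 pairwise tables. Values per sample were not used here, so no SD, n or p-value stands beside any level, and whether a difference exceeds the spread between samples could not be tested. The depth behind each value is unknown for the same reason. A gene was counted as past 2-fold when its ratio was at least 2 in either direction and the higher value was at least 1 FPKM. The tables were normalized separately, but the same line agreed closely between them: over members at or above 1 FPKM, PC3-EMT14 values differed between tables by a factor of 0.989 to 1.02. Bulk values do not separate fewer cells of a kind from less RNA per cell.

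The lines carried the markers that their names call for. CDH1, which encodes E-cadherin, stood at 1.00 FPKM in PC3-EMT14 and 50.6 in PC3-Epi, and reached 16.2 FPKM in PC3-EMT14-OVOL1 and 39.2 FPKM in PC3-EMT14-OVOL2. VIM, the mesenchymal intermediate filament, was 271 FPKM in PC3-EMT14 against 42.5 in PC3-Epi. All 4 mesenchymal markers (VIM, ZEB1, CDH2 and FN1) were lower than in PC3-EMT14 in both OVOL lines. Past 2-fold were 0 with OVOL1 and 3 with OVOL2, beside 3.97% and 7.35% of all genes. OVOL1 was listed at 11.3 FPKM in its own line and OVOL2 at 831 FPKM in its own line, compared with 4.25 and 9.91 FPKM in PC3-Epi. Of 10 macrophage genes fixed as markers of the co-culture partner, CD68, which is also found in other cells, was the 1 that reached 1 FPKM. It was 54.1 FPKM in PC3-EMT14 and 13.3 in PC3-Epi, while CD14, CD163, PTPRC and C1QA lay between 0.00 and 0.09 FPKM in both lines.

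Reads from close copies of these genes are hard to place, so the sequences of 2 copies named in large member differences are shown first. HNRNPA3P1 is annotated as a processed pseudogene of HNRNPA3, on the minus strand of chromosome 10 at 44284697 to 44285835 (GRCh37, the build of the files, with GENCODE annotation). Aligned with gaps to the HNRNPA3 coding sequence, it was identical at 96.6% of 1133 bases. Of its 1090 windows of 50 bases, the read length of the study, 149 occurred unchanged in an HNRNPA3 transcript. The deposited HNRNPA3P1 entry spans 44282860 to 44285865, so these windows cover only part of that span. The first window of 60 coding bases in which the pair differ by 1 to 4 central bases is printed below, with the mismatch in capitals. It lies in a coding exon of HNRNPA3 at chr2:178080267-178080326 (plus strand) and in the pseudogene at chr10:44285704-44285763 (minus strand).
HNRNPA3: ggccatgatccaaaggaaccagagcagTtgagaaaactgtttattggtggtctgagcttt
HNRNPA3P1: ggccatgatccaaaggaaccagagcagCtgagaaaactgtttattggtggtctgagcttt

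HNRNPA1P10 is the counterpart for HNRNPA1. GENCODE places this processed pseudogene on the minus strand of chromosome 19 at 11776884 to 11777845, while the deposited isoform entry of that name sits inside the HNRNPA1 locus on chromosome 12. The sequence compared here is that of chromosome 19, which is not the locus listed for the deposited entry. This chromosome 19 sequence matched the HNRNPA1 coding sequence at 99.6% of 959 aligned bases, and 666 of its 913 windows of 50 bases occurred in HNRNPA1 transcripts. The window chosen by the same rule lies in a coding exon of HNRNPA1 at chr12:54675580-54675639 (plus strand) and at chr19:11777653-11777712 (minus strand), again with the mismatch in capitals.
HNRNPA1: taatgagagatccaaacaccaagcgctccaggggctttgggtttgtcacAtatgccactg
HNRNPA1P10: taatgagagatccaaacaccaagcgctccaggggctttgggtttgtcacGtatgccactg

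The other copies were of another kind. HNRNPA1L2, annotated as protein-coding on chromosome 13 at 53216566 to 53217908, shared 630 of 1294 windows of 50 bases with HNRNPA1 transcripts. The deposited HNRNPA1L2 entry spans more, from 53191605 to 53217919. The second SRSF10 entry lies on a contig assigned to chromosome 1 without a position on it, and shared 89.6% of its 13960 windows with the chromosome 1 locus. Values of these copies and of their parents are therefore uncertain, since the division of shared reads among them was made by the counting tool.

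The levels of the members spanned a wide range in PC3-EMT14. In the table that pairs it with PC3-EMT14-OVOL1, the highest entries were HNRNPA2B1 at 241 FPKM, HNRNPA1 at 185 FPKM, SRSF2 at 177 FPKM, SRSF9 at 157 FPKM and HNRNPC at 138 FPKM. HNRNPA2B1 and HNRNPA1 bind pre-mRNA as core hnRNP proteins, HNRNPC packages long uridine-rich transcripts, and SRSF2 and SRSF9 are classical SR proteins. At the low end, SRSF12 was listed at 0.01 to 0.02 FPKM in the 4 lines, so no ratio is read from it, and 33 of the 34 entries passed the minimum in each comparison. The lowest of these were HNRNPA3P1 at 1.54 FPKM and the HNRNPCL1 entry at 3.68 FPKM.

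**Figure D1:**
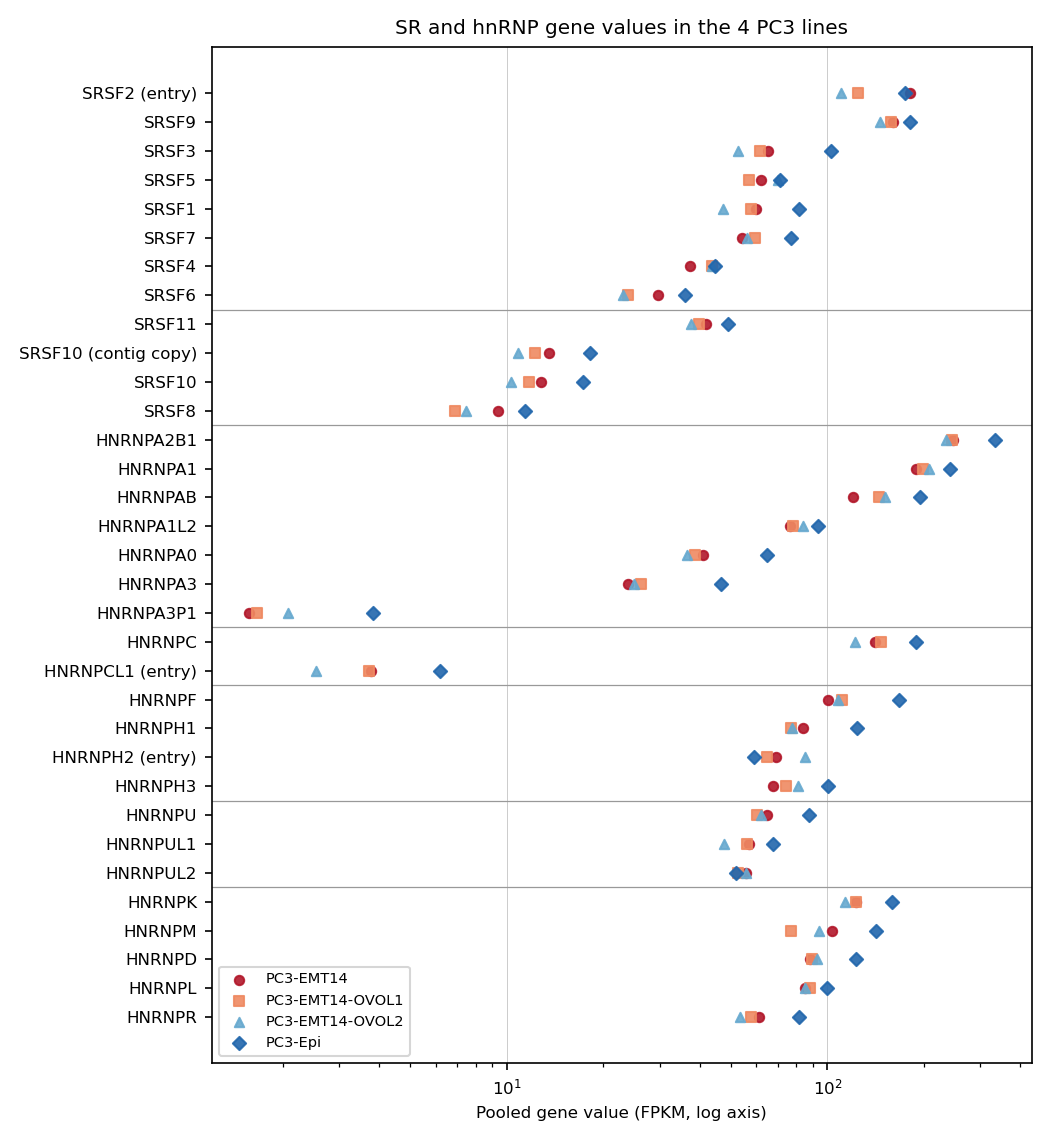
Pooled FPKM (x axis, log scale) of the 33 SR and hnRNP entries above 1 FPKM in each of the 4 lines, ordered by family and, within it, by the PC3-EMT14 value. PC3-EMT14 and PC3-Epi come from the table that pairs them and the OVOL lines from their tables against PC3-EMT14. The PC3-Epi points lie to the right of the PC3-EMT14 points for 30 of 33 entries, while the OVOL points lie on either side.

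The comparison of PC3-EMT14 with PC3-Epi asked how the families differ between the mesenchymal and the epithelial line. Higher values in PC3-Epi were the rule: 30 of the 33 entries were higher there, against 49.1% of the 12441 genes above 1 FPKM. The median member ratio was 0.43 on the log2 scale, with a range from -0.23 to 1.28, beside a median of -0.01 over all genes. The median member lay above 79.0% of all genes. The differences were modest in size, and 1 member of 33 was past 2-fold (HNRNPA3P1), against 15.7% of all genes. At least 1.5-fold higher were 7 of 33, beside 15.2% of all genes. These 7 include the pseudogene HNRNPA3P1 and the HNRNPCL1 entry, whose whole value is listed under another symbol. No member was 1.5-fold lower, so 7 of 33 were past 1.5-fold in either direction, where 31.5% of all genes were.

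The count was also taken among abundant genes. Among genes of at least 20 FPKM in the higher line, 25 of 28 members and 52.2% of 4552 genes were higher in PC3-Epi, with medians of 0.42 and 0.02 on the log2 scale. The summed FPKM of all genes was itself larger in the PC3-Epi column. Scaling both columns to equal sums subtracts 0.13 from each log2 ratio. The count of higher members was still 30 of 33 after this scaling, beside 38.9% of all genes, with a member median of 0.30. The deposited labels of PC3-EMT14 and both OVOL lines end in II_trim, while the label of PC3-Epi does not. What this ending means is not stated, so any difference in handling cannot be told apart from the line.

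Among the classical SR proteins, 7 of 8 entries were higher in PC3-Epi, with a median log2 ratio of 0.27. SRSF3, the smallest of the SR proteins and a regulator of mRNA export as well as splicing, went from 65.4 FPKM in PC3-EMT14 to 102.9 in PC3-Epi, a log2 ratio of 0.65. SRSF7, its close relative, went from 54.1 to 77.0 FPKM (log2 ratio 0.51). SRSF1, the founding SR protein and a known oncogene, reached 81.7 FPKM in PC3-Epi (0.44). SRSF6 (29.6 and 35.9 FPKM), SRSF4 (37.4 and 44.8 FPKM), SRSF5 (62.0 and 71.3 FPKM) and SRSF9 (160.0 and 181 FPKM) had log2 ratios between 0.18 and 0.28. The entry that was not higher was SRSF2, at 181 and 174 FPKM, and it is described with its isoforms below.

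The 4 other SRSF entries above 1 FPKM were all higher in PC3-Epi, by 0.23 to 0.43 on the log2 scale. SRSF10, which acts as a splicing repressor when dephosphorylated, was 12.8 FPKM in PC3-EMT14 and 17.3 in PC3-Epi at its chromosome 1 locus. Its contig copy gave 13.5 and 18.2 FPKM. SRSF11 was 41.8 and 48.9 FPKM, and SRSF8, an intronless relative of SRSF2, was 9.36 and 11.4 FPKM.

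The hnRNP A/B genes had the highest median of any family, 0.66 on the log2 scale, with 7 of 7 entries higher in PC3-Epi. HNRNPA3 was 23.9 FPKM in PC3-EMT14 and 46.5 in PC3-Epi, a ratio of 1.95 that lies just outside the 2-fold threshold. HNRNPA3P1, the member just inside it, was 1.57 and 3.82 FPKM, a ratio of 2.43. The pseudogene and its parent were thus higher in the same line, and reads shared by the pair were described above. HNRNPAB, which binds both RNA and promoter DNA, was 120.3 and 194 FPKM (log2 ratio 0.69), and HNRNPA0, which binds AU-rich elements, was 40.9 and 64.8 FPKM (0.66). HNRNPA2B1 was 246 FPKM in PC3-EMT14 and 332 in PC3-Epi, HNRNPA1 was 189 and 242 FPKM, and HNRNPA1L2 was 76.5 and 93.2 FPKM.

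The hnRNP F/H proteins bind runs of guanines. HNRNPF was 100.1 FPKM in PC3-EMT14 and 167 in PC3-Epi (log2 ratio 0.74), the third highest ratio among all members. HNRNPH1 was 83.8 and 124 FPKM, and HNRNPH3 was 67.6 and 100.2 FPKM, both with a log2 ratio of 0.57. The HNRNPH2 entry was 69.3 and 59.2 FPKM (-0.23), but it holds another gene. HNRNPC was 141 and 189 FPKM (0.42). The HNRNPCL1 entry was 3.76 and 6.21 FPKM (0.72), and its whole value is listed under LOC649330, which shares the entry.

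The remaining hnRNP genes had log2 ratios of at most 0.48. HNRNPD, also known as AUF1 for its role in mRNA decay, HNRNPM, HNRNPR, HNRNPK and HNRNPL had log2 ratios of 0.22 to 0.48, and HNRNPD, the highest of these, went from 88.0 to 123 FPKM. The deposited status of the HNRNPD entry in this table was FAIL, which marks a failed numerical step in the authors' test. Among the scaffold proteins of the U family, HNRNPU was 65.0 FPKM in PC3-EMT14 and 87.6 in PC3-Epi, HNRNPUL1 was 57.0 and 67.7 FPKM, and HNRNPUL2 was 55.9 and 51.9 FPKM. HNRNPUL2 was the 1 member that was lower in PC3-Epi and shares its entry with no other symbol.

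**Figure D2:**
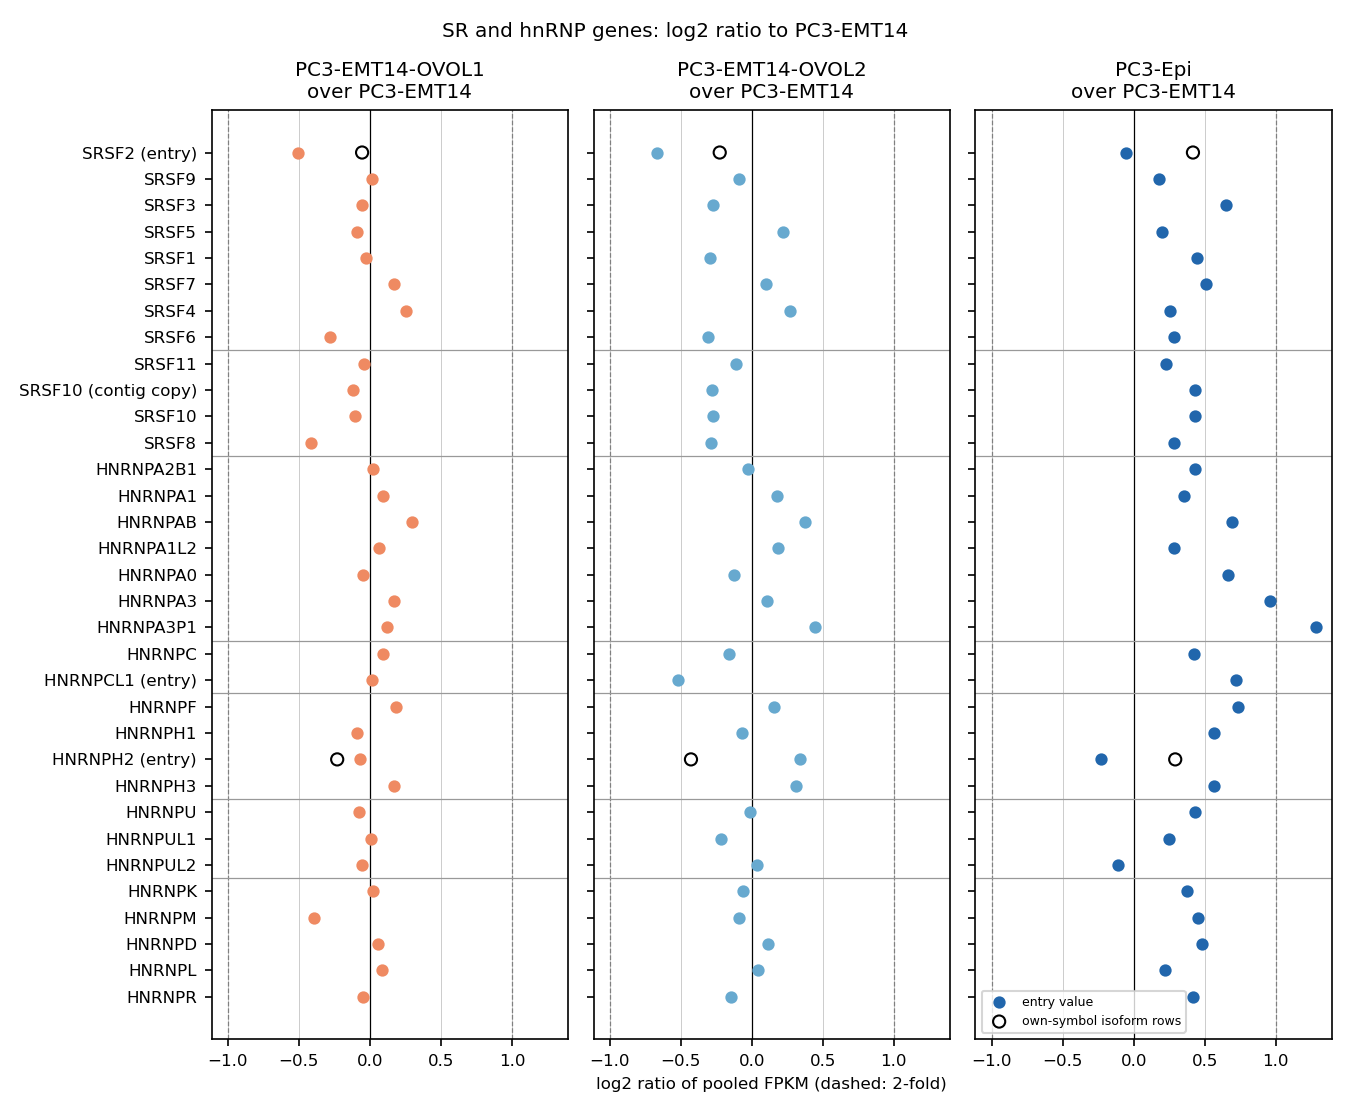
log2 ratio of pooled FPKM to PC3-EMT14 (x axis) for the 33 SR and hnRNP entries above 1 FPKM, in 1 panel for each of the other 3 lines. Filled points are entry values, open circles are the sums of the isoform entries named SRSF2 or HNRNPH2 alone, and dashed lines mark 2-fold. In the PC3-Epi panel HNRNPA3P1 lies past the line at 1.28 and HNRNPA3 just short of it at 0.96, and the OVOL panels hold no point past it.

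The comparisons of PC3-EMT14 with each OVOL line asked whether a forced shift towards the epithelial state moves these families. With OVOL1, 0 of 33 members were past 2-fold, where 3.97% of 12197 genes were. The members divided into 17 higher and 16 lower, next to 49.7% of all genes higher, with a median log2 ratio of 0.01 and a range from -0.51 to 0.30. Scaling to equal sums gave 12 higher, beside 42.1% of all genes, so no direction is read from the split. With OVOL2, 0 of 33 members were past 2-fold against 7.35% of 12307 genes. The split was 14 higher and 19 lower, with 44.0% of all genes higher, a median of -0.06 and a range from -0.67 to 0.45. Past 1.5-fold in either direction were 0 members with OVOL1, beside 8.80% of all genes, and 1 with OVOL2, the SRSF2 entry, beside 15.0%.

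The 5 largest differences with OVOL1 were spread over families. The SRSF2 entry was 177 FPKM in PC3-EMT14 and 124 in PC3-EMT14-OVOL1 (log2 ratio -0.51). SRSF8 was 9.17 and 6.88 FPKM (-0.41). HNRNPM, a known competitor of ESRP1 at CD44 exons, was 102 and 77.2 FPKM (-0.39). HNRNPAB was 118 and 145 FPKM (0.30), and SRSF6 was 29.0 and 23.9 FPKM (-0.28). Against the same PC3-EMT14 libraries, HNRNPM was 100.5 FPKM and 94.2 FPKM with OVOL2 (-0.09), and 104 FPKM and 142 FPKM in PC3-Epi (0.45).

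With OVOL2 the SRSF2 entry again had the largest difference, 175 FPKM in PC3-EMT14 and 110.1 in PC3-EMT14-OVOL2 (log2 ratio -0.67). The HNRNPCL1 entry was 3.65 and 2.54 FPKM (-0.52). Its isoform entry named HNRNPCL1 was listed at 0 in all 4 lines, so the whole value belongs to LOC649330, which shares the entry. HNRNPA3P1 was 1.52 and 2.08 FPKM (0.45), HNRNPAB was 117 and 151 FPKM (0.37), and the HNRNPH2 entry was 67.2 and 85.1 FPKM (0.34). HNRNPH3 was 65.5 and 81.1 FPKM (0.31). SRSF6 was 28.7 and 23.1 FPKM (-0.31), SRSF1 was 58.2 and 47.4 FPKM (-0.30) and SRSF3 was 63.4 and 52.5 FPKM (-0.27), so these 3 SR genes had their lowest values in the OVOL2 line and their highest in PC3-Epi.

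Values for single members are set side by side here, and since PC3-EMT14 is the reference of all 3 comparisons, an extreme value there enters each of them. HNRNPAB had the log2 ratios 0.30, 0.37 and 0.69 in the OVOL1 line, the OVOL2 line and PC3-Epi, and SRSF4 had 0.26, 0.27 and 0.26. HNRNPF had 0.18, 0.16 and 0.74, and HNRNPH3 had 0.17, 0.31 and 0.57. SRSF3 had -0.06, -0.27 and 0.65, and HNRNPA0 had -0.05, -0.12 and 0.66. The first 4 genes were thus above PC3-EMT14 in each line, while SRSF3 and HNRNPA0 were above it in PC3-Epi and below it in the OVOL lines.

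The OVOL lines were also compared with each other. Between PC3-EMT14-OVOL1 and PC3-EMT14-OVOL2, 0 of 33 members were past 2-fold, against 3.08% of 12188 genes, and 0 were past 1.5-fold, against 7.47%. In PC3-EMT14-OVOL2, 14 members and 42.5% of all genes were higher. Scaling to equal sums gave 19 higher members and 55.0% of all genes. The largest differences were the HNRNPCL1 entry (3.69 and 2.54 FPKM, log2 ratio -0.54), the HNRNPH2 entry (64.1 and 85.1 FPKM, 0.41), HNRNPA3P1 (1.65 and 2.08 FPKM, 0.33), SRSF5 (56.4 and 70.1 FPKM, 0.31) and HNRNPM (76.4 and 94.2 FPKM, 0.30).

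**Figure D3:**
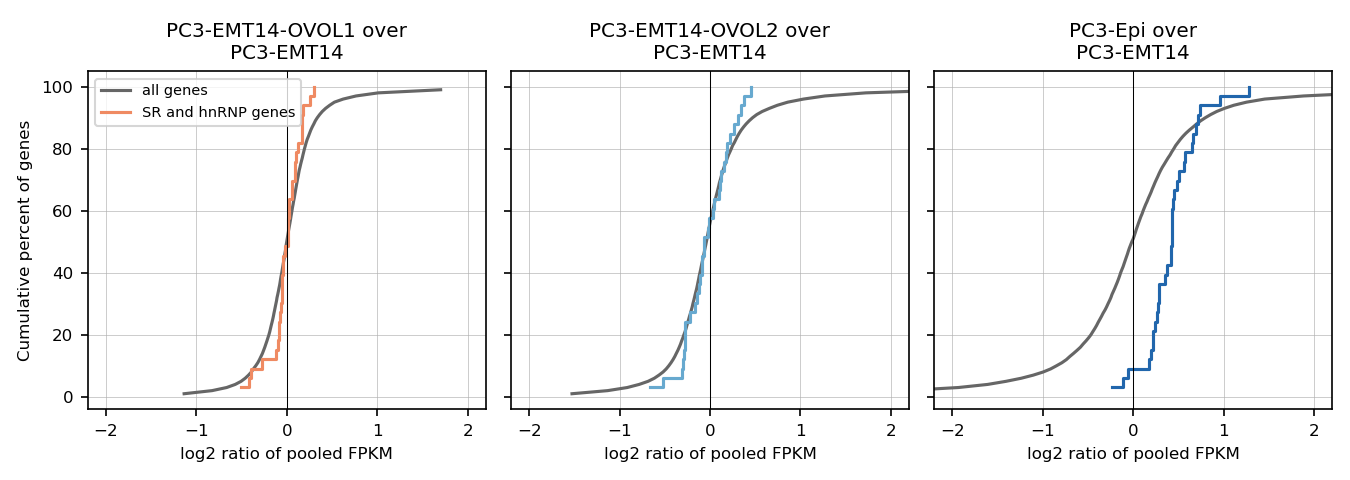
Cumulative percent of genes (y axis) by log2 ratio of pooled FPKM to PC3-EMT14 (x axis), for the 33 SR and hnRNP entries (coloured steps) and the 1st to 99th percentile of all genes above 1 FPKM (grey line). The member curve lies near the grey line in the OVOL panels, with medians of 0.01 and -0.06, and is displaced to the right in the PC3-Epi panel, with a median of 0.43 against -0.01.

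The value of 4 entries depended on isoform entries named for another gene. In 3 of them that gene lies outside the symbol rule, and in the HNRNPA1 entry it is the copy HNRNPA1P10. The SRSF2 entry, on chromosome 17, holds 3 isoform entries named SRSF2 and 1 named MIR636. MIR636 is a microRNA gene of 99 bases at 74732532 to 74732630 on the same minus strand as SRSF2, and 15 of its bases overlap an exon of coding SRSF2 transcripts, with the rest in an intron of these. It also lies wholly inside an exon of a noncoding SRSF2 transcript. The MIR636 entry was 49.2 FPKM in PC3-EMT14 and 1.37 in PC3-EMT14-OVOL1. It was 2.03 FPKM in PC3-EMT14-OVOL2 and was listed at 0 in PC3-Epi. The 3 SRSF2 isoform entries alone summed to 128 FPKM in PC3-EMT14 and 123 in PC3-EMT14-OVOL1 (log2 ratio -0.05). In their own tables the sums were 126 and 108 FPKM with OVOL2 (-0.23), and 130.4 and 174 FPKM in PC3-Epi (0.42). With OVOL1 the MIR636 entry thus differed by more than the SRSF2 isoforms together, and without it SRSF2 was higher in PC3-Epi, as the other classical SR genes were.

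The HNRNPH2 entry, on the X chromosome, also holds the ribosomal protein gene RPL36A and the read-through RPL36A-HNRNPH2. The isoform entries named HNRNPH2 summed to 17.4 FPKM in PC3-EMT14 and 14.8 in PC3-EMT14-OVOL1. They were 17.2 and 12.8 FPKM with OVOL2, a log2 ratio of -0.43 where the whole entry gave 0.34. In PC3-Epi they were 17.8 and 21.8 FPKM (0.29), where the whole entry gave -0.23. The RPL36A isoform entry TCONS_00036546 was 9.19 FPKM in PC3-EMT14 and 32.3 in PC3-EMT14-OVOL2. Counted by isoform entries with a member symbol, 31 of 32 gene entries were higher in PC3-Epi, beside 49.1% of all genes. With HNRNPA3P1, HNRNPA1L2, the SRSF10 contig copy and the HNRNPCL1 and HNRNPH2 entries left out, 26 of 28 whole entries were higher, beside 49.1%.

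The HNRNPA1 entry with OVOL2 was 183 FPKM in PC3-EMT14 and 207 in PC3-EMT14-OVOL2 (log2 ratio 0.18). Without the isoform entry named HNRNPA1P10 the values were 183 and 176 FPKM (-0.06), so the direction turned. In PC3-Epi the ratio was 0.23 without it and 0.35 with it. The direction also turned between the OVOL lines, with 0.08 for the whole entry and -0.15 without the isoform entry named HNRNPA1P10. The count of members higher in PC3-EMT14-OVOL2 was then 13 of 33 in both comparisons that hold this line. Of all genes, 44.0% were higher against PC3-EMT14 and 42.5% against PC3-EMT14-OVOL1.

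**Figure D4:**
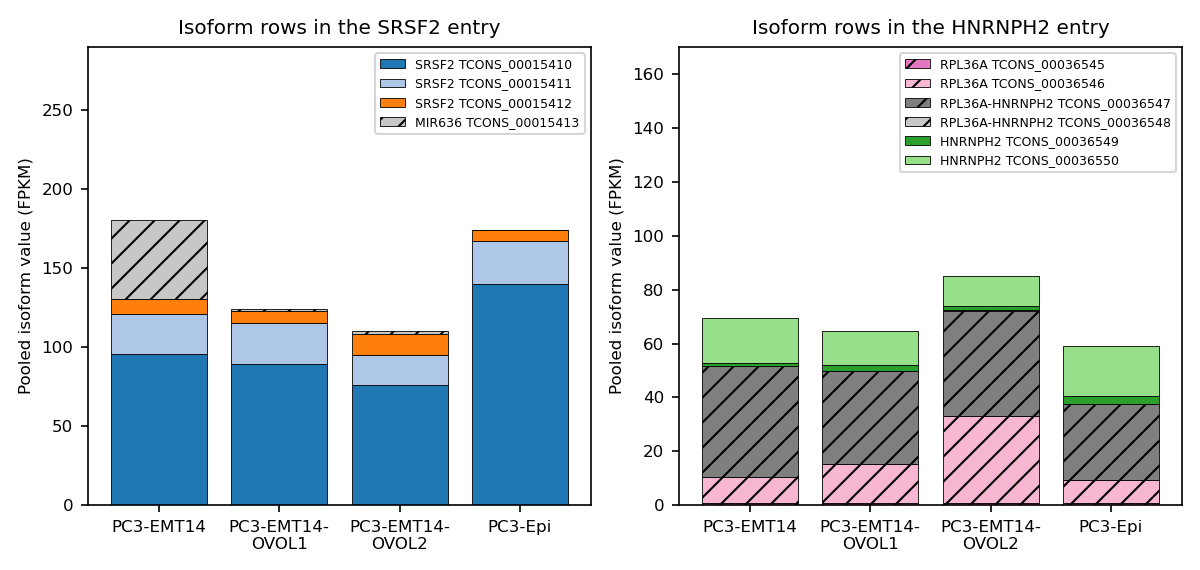
Pooled FPKM (y axis) of each isoform entry within the SRSF2 and HNRNPH2 gene entries, stacked for the 4 lines. Plain segments carry the member symbol and hatched segments another symbol. The MIR636 segment is 50.3 FPKM in PC3-EMT14 and at most 2.03 FPKM in the other 3 lines, and the RPL36A segment is largest in PC3-EMT14-OVOL2.

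Isoform use was compared as the share of each isoform entry in the summed FPKM of its gene entry. A shift of at least 20 percentage points was counted where a gene had at least 2 isoform entries and summed to at least 1 FPKM in both lines. This left 73 member isoforms in 25 gene entries. With OVOL1, 0 member isoforms were past 20 points, where 1.57% of 14056 isoforms were. With OVOL2 the count was 3 of 73 beside 2.73% of 14064, in PC3-Epi 1 of 73 beside 3.73% of 13739, and between the OVOL lines 1 of 73 beside 1.80% of 14151. At 10 points the member counts were 1, 6, 3 and 6 of 73 in the same order, beside 6.72%, 10.7%, 12.3% and 8.39% of all isoforms. Isoforms of 1 gene share a denominator, so in a gene with 2 isoforms both are counted. The median absolute shift of member isoforms was 1.72, 2.85, 2.49 and 1.79 points, beside 1.35, 1.77, 1.89 and 1.54 points over all isoforms.

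HNRNPA1, an exon silencer, gave a share difference past 20 points with OVOL2. Its main isoform entry, TCONS_00007716, held 71.2% in PC3-EMT14, 72.9% in PC3-EMT14-OVOL1, 49.4% in PC3-EMT14-OVOL2 and 65.5% in PC3-Epi. The second isoform, TCONS_00007717, held 28.6%, 26.5%, 35.3% and 26.1%. The entry named HNRNPA1P10 held 0.27% in PC3-EMT14, 0.65% in PC3-EMT14-OVOL1, 15.3% in PC3-EMT14-OVOL2 and 8.38% in PC3-Epi. In FPKM it was 0.50 in PC3-EMT14 against 31.8 with OVOL2 and 20.2 in PC3-Epi. This entry is placed inside the HNRNPA1 locus, and how many of its reads came from HNRNPA1 itself was not tested. With the entry named HNRNPA1P10 left out of the total, the main isoform held 71.4% in PC3-EMT14 and 58.3% in PC3-EMT14-OVOL2. This shift of -13.1 points no longer passes 20. The counts past 20 points were then 2 of 72 with OVOL2, beside 2.72% of all isoforms. Between the OVOL lines the count was 0 of 72, beside 1.80%.

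HNRNPL binds CA-rich elements and has the other shift past 20 points with OVOL2. Both of its isoform entries carry the status NOTEST in that table, which means that the authors' tool ran no test on them. TCONS_00017852 held 24.1% in PC3-EMT14, 27.8% in PC3-EMT14-OVOL1, 44.9% in PC3-EMT14-OVOL2 and 32.1% in PC3-Epi. The gene value hardly differed, at 82.5 FPKM in PC3-EMT14 and 84.9 in PC3-EMT14-OVOL2. The shift of 20.8 points lies just inside the threshold. Just outside it lies the SRSF2 isoform TCONS_00015410 with OVOL1, at 19.1 points, also with the status NOTEST there.

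That SRSF2 isoform held 52.8% of its entry in PC3-EMT14, 71.9% in PC3-EMT14-OVOL1, 68.8% in PC3-EMT14-OVOL2 and 80.4% in PC3-Epi, where it gave the 1 shift past 20 points. The MIR636 entry held 27.8% of the denominator in PC3-EMT14 and at most 1.85% in the other lines. With shares taken over isoforms of a member symbol alone, the count past 20 points in PC3-Epi was 0 of 72.

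Shifts between 5 and 20 points were found in further regulators. SRSF6, the SR protein whose transcript carries a known decay exon, had its isoform TCONS_00020990 at 53.7% in PC3-EMT14, 47.2% in PC3-EMT14-OVOL1, 46.6% in PC3-EMT14-OVOL2 and 68.0% in PC3-Epi. Its status was NOTEST in all 4 tables. The OVOL lines thus lay on the other side of PC3-EMT14 from PC3-Epi. The main isoform of SRSF1, TCONS_00015200, was ordered the same way, at 84.6%, 77.6%, 75.3% and 88.6%. HNRNPH3 stood at 28.9% for TCONS_00003926 in PC3-EMT14 and at 37.5%, 37.8% and 38.6% in the other 3 lines. In HNRNPF, TCONS_00004584 held 16.1% in PC3-EMT14 and 22.0%, 21.3% and 22.3% in the others.

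In HNRNPK, which binds C-rich RNA, TCONS_00035484 held 14.3% in PC3-EMT14, 11.0% in PC3-EMT14-OVOL1, 5.60% in PC3-EMT14-OVOL2 and 13.8% in PC3-Epi. HNRNPUL1 showed 41.9%, 43.5%, 33.1% and 46.5% for TCONS_00016714, which is NOTEST with OVOL2. HNRNPAB had TCONS_00027035 at 25.7%, 22.0%, 19.2% and 23.2%. HNRNPM had TCONS_00016252 at 54.7%, 51.8%, 47.0% and 51.1%, and it is NOTEST with OVOL1. The HNRNPH2 isoform TCONS_00036550 was 10.9 points lower with OVOL2, in an entry shared with RPL36A. In SRSF3 the minor isoform, TCONS_00028189, held 9.47%, 6.95%, 14.5% and 11.4%. HNRNPD isoform TCONS_00025892 stood at 6.20% in PC3-EMT14 and 14.4% in PC3-Epi, in the table that marks it FAIL. SRSF10 had 7 isoform entries, and its TCONS_00002164 held 17.6% in PC3-EMT14, 12.2% and 9.92% in the OVOL lines and 23.3% in PC3-Epi. Its contig copy showed the same order, at 14.7% in PC3-EMT14 and 10.3% and 9.04% in the OVOL lines, and most of its 50-base windows are shared with the chromosome 1 locus.

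The other members with several isoform entries stayed under 5 points from PC3-EMT14 in the 3 other lines. HNRNPU moved by at most 1.17 points, HNRNPA2B1 by at most 2.79 points and SRSF7 by at most 2.53 points. The same line differed between tables by at most 0.045 points, so the shares do not depend on the table.

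**Figure D5:**
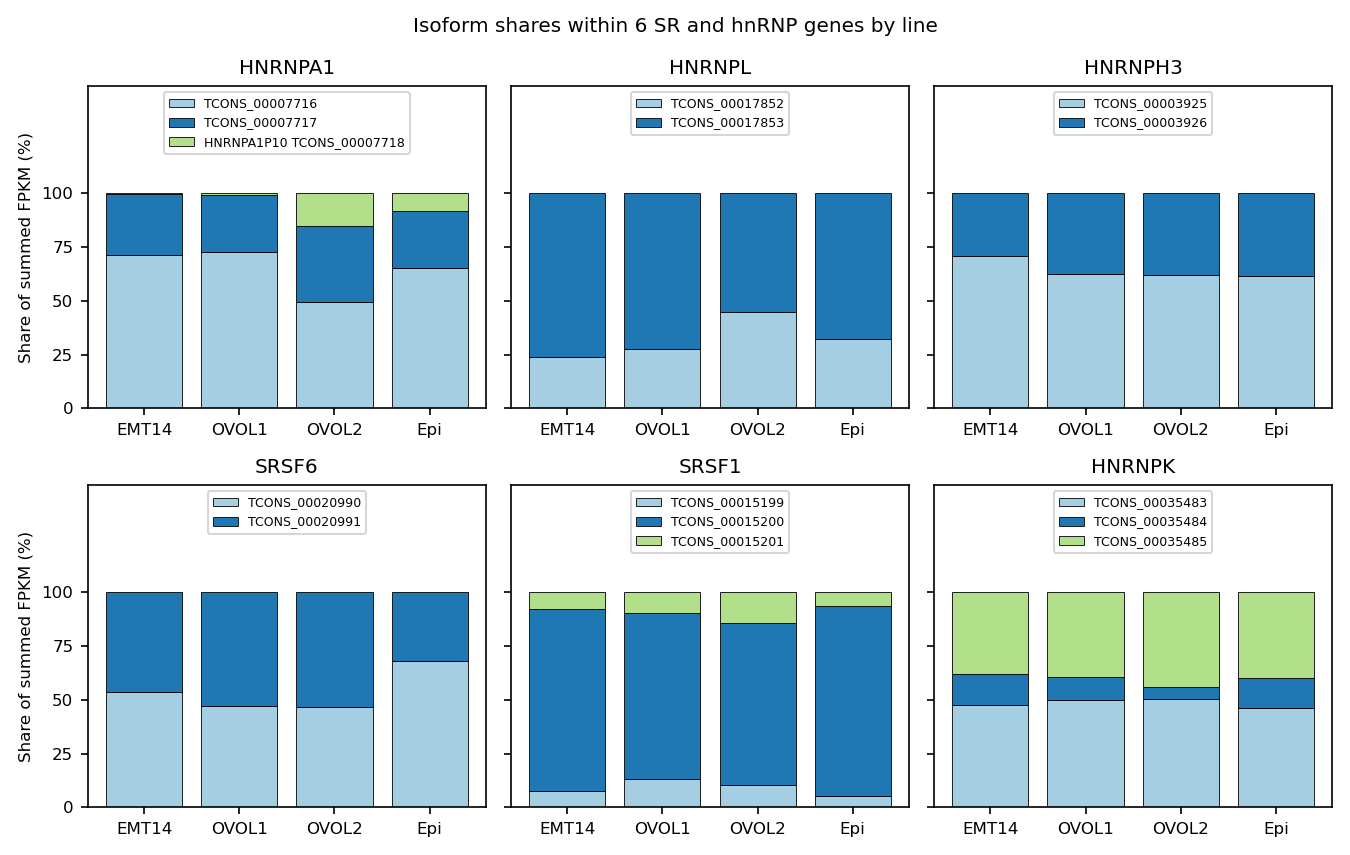
Share of each isoform entry in the summed FPKM of its gene (y axis, percent) in the 4 lines for HNRNPA1, HNRNPL, HNRNPH3, SRSF6, SRSF1 and HNRNPK. The HNRNPA1P10 segment is visible in PC3-EMT14-OVOL2 (15.3%) and PC3-Epi (8.38%), and the lower HNRNPL segment is largest in PC3-EMT14-OVOL2 (44.9%).

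Splicing genes outside the symbol rule give the setting. Of 16 hnRNP family genes with other names, 15 were above 1 FPKM and 11 of these were higher in PC3-Epi (median log2 ratio 0.21). PTBP1, the polypyrimidine tract repressor, was 84.0 FPKM in PC3-EMT14 and 109 in PC3-Epi, and its paralog ROD1 was 11.5 and 22.2 FPKM. PCBP3 was past 2-fold the other way, at 3.71 and 0.48 FPKM. Of 15 SR-related proteins, SR protein kinases and the importer TNPO3, 10 were higher in PC3-Epi, with a median of 0.02. None of the 15 was past 2-fold in any of the 4 comparisons, and the same held for the 14 spliceosome core genes. Of these 14, 11 were higher in PC3-Epi (median 0.13), and U2AF1, which recognizes the end of the intron, was 55.0 and 86.0 FPKM. TRA2A, an SR-related activator, was 21.4 FPKM in PC3-EMT14 and 32.0 in PC3-Epi, with log2 ratios of 0.58 there and -0.25 and -0.57 in the OVOL1 and OVOL2 lines.

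Further splicing regulators linked to EMT, among them ESRP1 and ESRP2, were divided. Of 11 such genes above 1 FPKM, 7 were higher in PC3-Epi, with a median log2 ratio of 0.08. At least 2-fold higher were 4 (ESRP1, ESRP2, RBM47 and MBNL3) and NOVA1 was at least 2-fold lower, while 15.7% of all genes passed 2-fold. The others, MBNL1, MBNL2, QKI, CELF1, ELAVL2 and RBFOX2, had log2 ratios between -0.46 and 0.20, and MBNL1 was marked FAIL in this table. ESRP1 was 0.41 FPKM in PC3-EMT14 and 84.6 in PC3-Epi, and 15.2 and 11.7 FPKM in the OVOL1 and OVOL2 lines, with the status FAIL in the OVOL2 table. RBM47 was 1.12 FPKM in PC3-EMT14, 1.95 FPKM with OVOL1, 3.72 FPKM with OVOL2 and 11.8 FPKM in PC3-Epi. NOVA1, a neuronal regulator, was 6.31 FPKM in PC3-EMT14 and 0.94 in PC3-Epi. On the log2 scale ESRP1 had 7.67 and RBM47 3.40 in PC3-Epi, where the highest value of a member above 20 FPKM was 0.96 (HNRNPA3).

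Promoter windows were searched for the letters that ZEB1, a repressor, and the OVOL factors are known to bind. ZEB1 was 7.59 FPKM in PC3-EMT14 and 0.13 in PC3-Epi. Windows of 250 bases before to 50 bases after the start (RefSeq, GRCh38.p14) were found for 30 of 33 member symbols, 43 windows in all. The E-box letters CACCTG, on either strand, were in 3 of the 43, those of HNRNPF, HNRNPM and SRSF11, and in 20.6% of all 35116 windows. The OVOL core letters CCGTTA, on either strand, were in 1, that of SRSF10, and in 3.07% of all windows. The OVOL2 consensus given in the study is longer and admits other letters within this core, and it was not searched. No member window held both motifs. HNRNPF had the highest ratio in PC3-Epi among abundant members with the E-box letters, so the 250 bases before its start are shown (chr10:43397278-43397527, minus strand, 68.4% G or C), with the letters in capitals. A match of letters is a description and no binding was measured.
HNRNPF: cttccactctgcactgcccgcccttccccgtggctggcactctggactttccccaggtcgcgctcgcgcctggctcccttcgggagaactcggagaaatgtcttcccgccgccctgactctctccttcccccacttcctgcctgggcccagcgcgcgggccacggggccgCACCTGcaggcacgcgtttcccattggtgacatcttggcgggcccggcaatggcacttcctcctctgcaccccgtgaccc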

How the data were processed

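Total RNA from 10 samples of 4 PC3 lines was sequenced as paired-end reads. Per the study's methods, TopHat was used by the authors for alignment (UCSC hg19 transcriptome), and Cuffdiff then compared the lines in pairs under upper-quartile normalization, multi-read correction and bias correction; its notes also name FastQC and Cufflinks. The 8 deposited tables hold 1 FPKM value per line, made by the authors from all samples of that line, so depth per sample is unknown and no counting interval or floor was given. Multi-read correction divides reads among copies and isoforms by estimation, which can move the value of a copy or of a short entry. The tables also hold the authors' log2 fold changes, test statistics, p-values, q-values and calls, which were not used; the status word was used as a quality mark. The number of per-sample value columns left unused is 0.

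Ratios and isoform shares were computed without a pseudocount from the FPKM values in Python 3.11.15 with numpy 2.4.6 and pandas 2.3.3, and the functions were tested on simulated data with known answers. With 1 value per line no test was possible, so genes past 2-fold (higher value at least 1 FPKM) and isoforms past 20 percentage points were counted and set beside the same count over all features. Comparisons stay within a table. Named were all members by family, with the largest ratios and share shifts of each comparison and the values nearest the thresholds. The members and lists were chosen with earlier results of these data known. The prostate lineage list among the cell type markers is not reported here. The noncoding share of each gene was not analysed, because isoform entries carry assembly identifiers without accessions. Copies were compared with their parents on GRCh37 with GENCODE transcripts, in windows of 50 bases and with biotite 1.4.0 (gapped alignment), and plots were drawn with matplotlib 3.10.9. Promoter windows were RefSeq sequences on GRCh38.p14, matched by symbol. Loci are those of hg19 with the start counted from 1.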

Additional observations from a re-analysis of the deposited data

How the results depend on the processing

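No paired analysis was possible because each line has 1 pooled value per table, and for the same reason no sample could be left out. The count of members with a higher value in the second line stayed within 1.5 times under the 8 alternatives tried in each of 4 comparisons, which were chosen after seeing the data. This range is wide and also passes splits whose majority turned. Scaling to equal sums took the count from 17 to 12 of 33 with OVOL1 and from 14 to 19 between the OVOL lines. Among counts past 2-fold, 36 of 44 alternative values stayed within 1.5 times. At a fold of 1.5, the count was 1 with OVOL2, beside 15.0% of all genes, and 7 in PC3-Epi, beside 31.5%. With no minimum FPKM, it was 1 with OVOL1 and 1 between the OVOL lines, which is SRSF12 at 0.01 to 0.02 FPKM. In PC3-Epi it was 0 with a minimum of 5 or 20 FPKM, with a pseudocount of 1 FPKM, and without copies and shared entries, since each removes or shrinks HNRNPA3P1. At 10 percentage points, share counts were 1 with OVOL1, 6 with OVOL2, 3 in PC3-Epi and 6 between the OVOL lines. With shares over member symbols alone, chosen after seeing the data, the PC3-Epi count was 0. Without the HNRNPA1P10 entry, also chosen after seeing the data, the count between the OVOL lines was 0, beside 1.80% of all isoforms. The planned count of noncoding shares was not run, because isoform entries carry no accessions.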

Other observations

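The MIR636 entry was 1 of 1348 isoform entries named for microRNAs or small nucleolar RNAs. Their summed FPKM was 12271 in PC3-EMT14 and 41660 in PC3-Epi, and 11888 in PC3-EMT14 against 2673 in PC3-EMT14-OVOL2. Of 56 such entries at or above 10 FPKM in PC3-EMT14, 31 were listed at 0 in PC3-Epi and 28 at 0 in PC3-EMT14-OVOL2. SNORD29 was 2415 FPKM in PC3-EMT14 and listed at 0 in the other 3 lines. MIR1244-1 (TCONS_00008302) in PC3-EMT14-OVOL1 was 660 FPKM in the table against PC3-EMT14 and 737 FPKM in the table against PC3-EMT14-OVOL2, while the median gene of that line differed between these tables by a factor of 0.989.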
